A study of Homo sapiens with 8 samples.

Results

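The genes described here are 10 transcriptional targets of the co-activators YAP and TAZ: CCN1, CCN2, ANKRD1, AMOTL2, AJUBA, LATS2, CRIM1, AXL, TGM2 and PTPN14. They were taken by name, as every array probe whose annotation symbol is 1 of these genes, which gave 17 of the 47323 probes and 10 of the 20046 genes with a single symbol. Of the 17 probes, 15 passed the filter on dim probes (a detection p under 0.01 on at least 2 of the 8 arrays), and each of the 10 genes kept at least 1 probe. SKOV3 and OVCAR5 are established human lines used as models of ovarian carcinoma. They had been kept for 48 h in serum-containing medium with either 10 µM lovastatin or DMSO alone. Their RNA was measured on Illumina beadchips, 2 arrays for each of the 4 groups. Lovastatin is a statin, an inhibitor of the enzyme that makes mevalonate. Nothing in the labels ties the 2 arrays of a group to separate cultures, so the p-values measure only the spread between these arrays, which may be technical. Every group comes from a bulk culture of 1 line, and the reference in each line is its DMSO group.

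YAP and TAZ (the latter encoded by WWTR1) do not bind DNA themselves; in the nucleus they pair with the TEAD transcription factors, which recognise the core GGAATG, and switch on genes of matrix, adhesion and growth. The Hippo kinases LATS1 and LATS2 phosphorylate YAP and TAZ and keep them in the cytoplasm, and several proteins of that brake are themselves targets, which forms a feedback. Mevalonate is the precursor of cholesterol and of other isoprenoids, and products of that pathway are known to favour nuclear YAP and TAZ in cultured epithelial and carcinoma cells.

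The values below are normalised log2 intensities, listed for array 1 and array 2 of a group. Changes are log2 differences, lovastatin minus DMSO, given ± standard error with n = 2 arrays per group, and adjusted p-values are from limma with Benjamini-Hochberg adjustment over the 14851 probes kept. A gene was called at an adjusted p under 0.05 and counted once, by its brightest kept probe, among 11218 tested genes. Levels of different probes are not compared, because a probe's brightness also depends on its sequence. Between 15370 and 17231 probes were detected on an array, and the arrays of a group correlated at 0.988 to 0.994 across genes, which are not independent replicates. Of the epithelial markers, EPCAM, KRT8 and KRT18 were detected on all 8 arrays, KRT7 and KRT19 in SKOV3 and CDH1 on none. The Müllerian marker PAX8 was detected in all 4 groups, MSLN and FOLR1 in SKOV3, and WT1 and MUC16 on no array. PAX8 averaged 9.52 with DMSO and 11.1 with lovastatin in SKOV3, and 5.73 and 7.03 in OVCAR5. Its OVCAR5 DMSO mean was close to the lowest detected signal. All 4 endothelial markers were undetected on every array. Of the fibroblast markers, COL1A1 was detected on both arrays of each SKOV3 group, LUM on both SKOV3 DMSO arrays, COL3A1 on 1 array of each SKOV3 group and DCN on 3 SKOV3 arrays and 1 OVCAR5 DMSO array, and the other 3 of 7 on none. Of the leukocyte markers, PTPRC and CD3E were detected on no array, CD79A on 1 SKOV3 DMSO array, CD14 on all 4 OVCAR5 arrays (group means of 5.93 with DMSO and 6.47 with lovastatin) and CSF1R on both OVCAR5 lovastatin arrays (mean of 6.88) and neither OVCAR5 DMSO array. The part of these markers in the results was not tested.

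The promoter sequences of 7 of the 10 genes were read from RefSeq (GRCh38.p14), in windows of 250 bases before to 50 after an annotated transcription start; those of CCN1, CRIM1 and TGM2 are not shown here. The sequences are shown because the TEAD factors, with which YAP and TAZ pair, recognise this core. Capitals mark each match to it (GGAATG, or CATTCC where it lies on the other strand). CCN2 had 3 matches, which began 169, 104 and 95 bases before the start. ANKRD1 had 2, at 220 and 128 bases before the start. The 250 bases before the start of each, on the gene's own strand, read as follows.
CCN2 (chr6:131951373-131951622, minus strand): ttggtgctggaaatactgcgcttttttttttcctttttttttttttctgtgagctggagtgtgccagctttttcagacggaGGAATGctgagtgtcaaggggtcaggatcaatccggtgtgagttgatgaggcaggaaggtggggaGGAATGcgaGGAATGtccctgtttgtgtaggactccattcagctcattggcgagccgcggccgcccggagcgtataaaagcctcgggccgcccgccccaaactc
ANKRD1 (chr10:90921088-90921337, minus strand): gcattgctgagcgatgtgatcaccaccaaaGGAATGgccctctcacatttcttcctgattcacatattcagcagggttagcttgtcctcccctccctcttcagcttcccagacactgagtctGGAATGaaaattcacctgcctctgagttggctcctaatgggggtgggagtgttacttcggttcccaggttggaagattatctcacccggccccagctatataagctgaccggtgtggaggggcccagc

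The other 5 genes with an entry each had 1 match in 1 window, and 30 bases around it are shown. AMOTL2, AJUBA and AXL also had a window at another annotated start, which held no match. The matches of AMOTL2, AJUBA, AXL and PTPN14 began 69, 59, 212 and 200 bases before the start of their window. That of LATS2 lay after the start, from base 10 on.
AMOTL2 (chr3:134374499-134374528, minus strand): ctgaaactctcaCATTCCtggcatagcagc
AJUBA (chr14:22976884-22976913, minus strand): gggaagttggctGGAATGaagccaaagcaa
LATS2 (chr13:21061560-21061589, minus strand): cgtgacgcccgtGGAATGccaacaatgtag
AXL (chr19:41226531-41226560, plus strand): cagactttgcacCATTCCactccctccgct
PTPN14 (chr1:214551785-214551814, minus strand): cctcccgggccgCATTCCtccccgcccccg

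In all, 7 of the 10 windows of the 7 genes with an entry held GGAATG on either strand, against 14% of 35116 RefSeq promoter windows of the same length. The genes were taken as known targets, so this share is no test of the motif. At least 2 matches, as in CCN2 and ANKRD1, were present in 1.37% of all windows, and at least 3, as in CCN2, in 0.128%. The AP-1 core TGANTCA, searched on both strands because AP-1 often binds beside TEAD, was found in 1 of the 10 windows, that of ANKRD1 at 195 bases before the start, and in 7.71% of all windows. The motifs do not overlap each other in that window. A match is a run of letters and not a measured binding site, and the number of matches was not tested against the changes.

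The secreted and nuclear core targets fell in both lines. CCN1 (CYR61), a matricellular protein that binds integrins, stood at 12.31 and 12.33 in SKOV3 with DMSO and at 8.26 and 7.73 with lovastatin. In OVCAR5 it stood at 12.33 and 12.29 with DMSO and at 10.16 and 10.23 with lovastatin. The 4 DMSO arrays thus lay between 12.29 and 12.33, and all lovastatin arrays lay below them, those of SKOV3 lowest. CCN1 fell by 4.32 ± 0.17 in SKOV3, a 20.0-fold lower level (adjusted p = 1.57e-06), and fell by 2.12 ± 0.17 in OVCAR5, 4.34-fold lower (adjusted p = 0.000186). The fall was larger in SKOV3, with a difference of the changes (SKOV3 minus OVCAR5) of -2.21 ± 0.25 (adjusted p = 0.000572).

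CCN2 (CTGF), the related matricellular protein and a widely used readout of YAP, has 2 kept probes. Its brighter probe, ILMN_1699829, read 12.91 and 12.89 in SKOV3 with DMSO and 8.61 and 8.66 with lovastatin, and 12.38 and 12.44 in OVCAR5 with DMSO and 9.99 and 9.95 with lovastatin. The arrays of each group lay close together and no 2 groups overlapped. The level fell by 4.27 ± 0.11 in SKOV3, 19.2-fold (adjusted p = 4.5e-07), and fell by 2.44 ± 0.11 in OVCAR5, 5.41-fold (adjusted p = 2.04e-05). The second probe, ILMN_2115125, fell by 4.11 ± 0.14 in SKOV3 and fell by 2.50 ± 0.14 in OVCAR5 (adjusted p = 9.26e-07 and 3.78e-05), so both probes gave the same order of the lines. The difference of the changes was -1.83 ± 0.16 by the brighter probe and -1.61 ± 0.20 by the other (adjusted p = 0.000228 and 0.000968).

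ANKRD1, a nuclear and sarcomeric ankyrin repeat protein whose promoter is printed above, read 9.66 and 9.57 in SKOV3 with DMSO and 5.14 and 5.32 with lovastatin. Both SKOV3 lovastatin arrays were undetected at a p of 0.01, so only a bound can be given: the lovastatin arrays read at least 18.6-fold lower (adjusted p = 4.98e-07). OVCAR5 read 9.70 and 9.78 with DMSO and 7.22 and 7.26 with lovastatin, detected throughout, and the level fell by 2.50 ± 0.12, 5.65-fold (adjusted p = 2.34e-05). The difference of the changes, -1.89 ± 0.18 (adjusted p = 0.000293), includes the undetected group at its measured value. Without background correction the SKOV3 change was -2.71 and the difference -0.77.

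**Figure D1:**
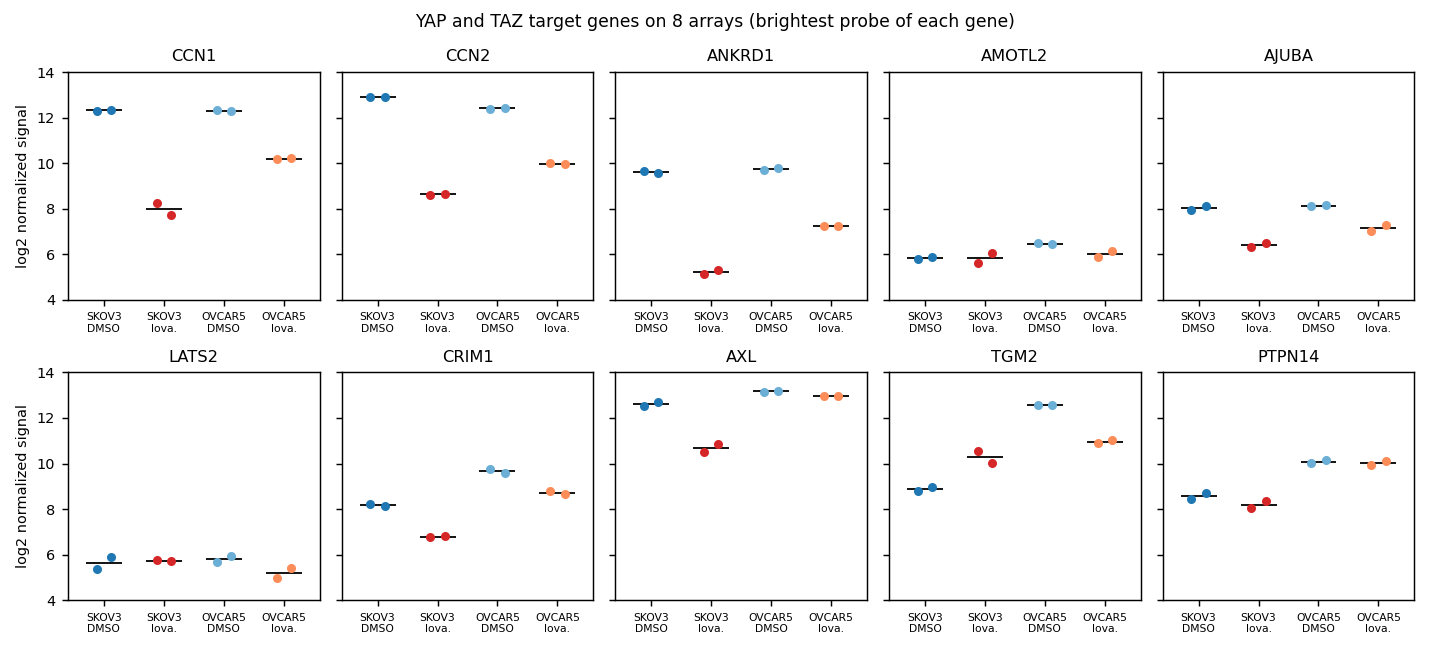
Normalised log2 intensity (vertical axes, the same range in every panel) of the brightest kept probe of each of the 10 genes on the 8 arrays. Points are single arrays, grouped by line and treatment, and horizontal lines are means of 2 arrays; brightness is not to be compared between panels. CCN1, CCN2 and ANKRD1 fall in both lines with SKOV3 lowest, AXL falls in SKOV3, and TGM2 moves up in SKOV3 and down in OVCAR5.

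Of the members that act in the Hippo pathway, AJUBA was called lower in both lines, and AMOTL2, LATS2 and PTPN14 were called in neither. AJUBA, a LIM protein that holds LATS kinases in check at cell junctions, read 7.96 and 8.10 in SKOV3 with DMSO and 6.31 and 6.48 with lovastatin, and 8.10 and 8.16 in OVCAR5 with DMSO and 7.02 and 7.27 with lovastatin. The 4 DMSO arrays lay together, above all 4 lovastatin arrays. AJUBA fell by 1.63 ± 0.14 in SKOV3, 3.10-fold (adjusted p = 4.06e-05), and fell by 0.99 ± 0.14 in OVCAR5, 1.98-fold (adjusted p = 0.00232). The difference of the changes was -0.65 ± 0.20 (adjusted p = 0.0454), close to the threshold, and that call was lost in 12 of 18 alternative analyses. Its other 2 probes did not pass the filter: ILMN_1661372 was detected on 1 array and ILMN_1811535 on none, so the values of AJUBA rest on 1 probe.

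AMOTL2, an angiomotin that binds YAP and retains it at junctions, read 5.81 and 5.87 in SKOV3 with DMSO and 5.61 and 6.07 with lovastatin. Its lovastatin arrays in SKOV3 lay on either side of the DMSO arrays, and the change was -0.00 ± 0.17 (95% interval -0.40 to 0.39, adjusted p = 0.997). In OVCAR5 it read 6.49 and 6.43 with DMSO and 5.87 and 6.14 with lovastatin, a difference of -0.45 ± 0.17 that did not pass the threshold (95% interval -0.85 to -0.06, adjusted p = 0.101), although the groups did not overlap. The AMOTL2 values were close to the lowest detected signal of an array. A fall of the size seen in CCN1 or CCN2 could not have been measured at this probe.

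LATS2, the kinase that inactivates YAP and TAZ, read 5.39 and 5.91 in SKOV3 with DMSO and 5.76 and 5.71 with lovastatin, and the groups overlapped. The change was 0.09 ± 0.21 (95% interval -0.40 to 0.58, adjusted p = 0.752). In OVCAR5 it read 5.68 and 5.95 with DMSO and 4.96 and 5.40 with lovastatin, where both arrays were undetected. That difference, at least 1.26-fold, did not pass the threshold (adjusted p = 0.0696). Like AMOTL2, LATS2 read close to the lowest detected signal, so a fall of the size seen in CCN1 could not have been measured.

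PTPN14, a phosphatase that binds YAP and holds it outside the nucleus, was the third feedback gene with no call. Its brighter probe, ILMN_1917341, read 8.43 and 8.71 in SKOV3 with DMSO and 8.06 and 8.34 with lovastatin, and 10.03 and 10.14 in OVCAR5 with DMSO and 9.92 and 10.11 with lovastatin. The SKOV3 groups did not overlap and the OVCAR5 groups did. The changes were -0.37 ± 0.16 in SKOV3 (95% interval -0.74 to -0.01, adjusted p = 0.083) and -0.08 ± 0.16 in OVCAR5 (adjusted p = 0.786). The dimmer probe, ILMN_1750240, was undetected on both SKOV3 DMSO arrays and on 1 SKOV3 lovastatin array, so no SKOV3 change is given for it, and its OVCAR5 change of -0.25 ± 0.16 was not called.

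At the membrane, CRIM1, a transmembrane protein with cysteine-rich repeats that binds bone morphogenetic proteins, read 8.21 and 8.15 in SKOV3 with DMSO and 6.79 and 6.80 with lovastatin, and 9.77 and 9.59 in OVCAR5 with DMSO and 8.79 and 8.64 with lovastatin. No groups overlapped, and OVCAR5 with lovastatin still lay above SKOV3 with DMSO. CRIM1 fell by 1.38 ± 0.13 in SKOV3, 2.60-fold (adjusted p = 5.98e-05), and fell by 0.97 ± 0.13 in OVCAR5, 1.95-fold (adjusted p = 0.00167). The difference of the changes, -0.41 ± 0.18, did not pass the threshold (adjusted p = 0.128).

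AXL, a receptor tyrosine kinase for GAS6 that is linked to invasion in ovarian carcinoma, fell in SKOV3 and was not called in OVCAR5. Its brighter probe, ILMN_1701877, read 12.52 and 12.72 in SKOV3 with DMSO and 10.50 and 10.87 with lovastatin, and 13.14 and 13.19 in OVCAR5 with DMSO and 12.98 and 12.97 with lovastatin. The SKOV3 lovastatin arrays stood apart below all 6 others. AXL fell by 1.94 ± 0.15 in SKOV3, 3.84-fold (adjusted p = 2.51e-05), against -0.19 ± 0.15 in OVCAR5 (95% interval -0.54 to 0.16, adjusted p = 0.427). The second probe, ILMN_2364521, gave -1.62 ± 0.11 and -0.20 ± 0.11 (adjusted p = 1.44e-05 and 0.26). The difference between the lines was itself called by both probes, at -1.75 ± 0.22 and -1.42 ± 0.16 (adjusted p = 0.000927 and 0.000632).

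TGM2, tissue transglutaminase, which cross-links matrix proteins, went in opposite directions in the lines by its brightest probe, ILMN_1705750. That probe read 8.80 and 8.97 in SKOV3 with DMSO and 10.56 and 10.02 with lovastatin, and 12.55 and 12.59 in OVCAR5 with DMSO and 10.88 and 11.02 with lovastatin. The groups of both lines moved towards each other without overlap. It rose by 1.40 ± 0.18 in SKOV3, 2.65-fold (adjusted p = 0.00038), and fell by 1.62 ± 0.18 in OVCAR5, 3.08-fold (adjusted p = 0.000814). The difference of the changes was 3.03 ± 0.26 (adjusted p = 0.000214).

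Its other kept probes, which the annotation assigns to a different transcript record of the gene than the brightest, did not rise in SKOV3. ILMN_1679267 read 7.66 and 7.53 in SKOV3 with DMSO and 6.45 and 6.78 with lovastatin, a fall of 0.98 ± 0.16 (adjusted p = 0.0012). ILMN_1797236 read 5.91 and 5.85 with DMSO and 5.85 and 5.63 with lovastatin, a change of -0.13 ± 0.15 (adjusted p = 0.501). In OVCAR5 all 3 probes fell, with changes of -0.57 ± 0.16 and -1.32 ± 0.15 at these probes (adjusted p = 0.0355 and 0.000888), though the former call was lost in 9 of 17 alternatives. The direction of TGM2 in SKOV3 thus differed between probes of the gene, and with the mean of its kept probes the SKOV3 change was 0.10 (adjusted p = 0.491). The fall in OVCAR5 was common to all 3.

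**Figure D2:**
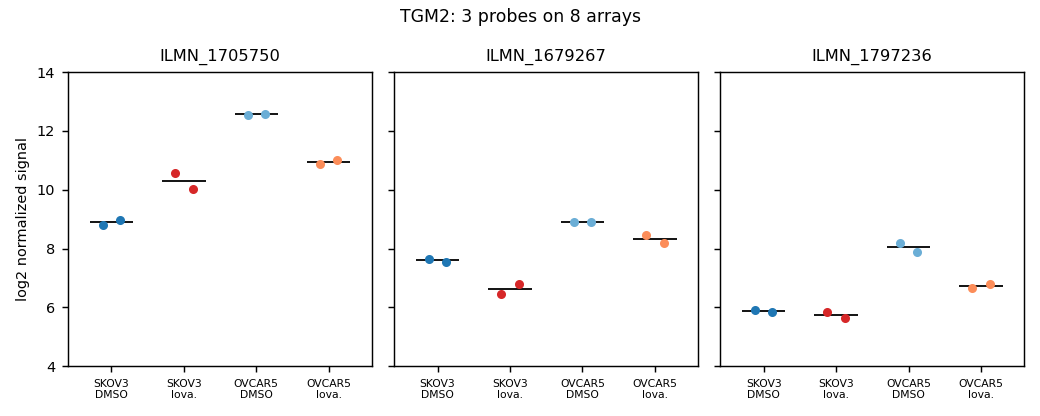
Normalised log2 intensity (vertical axis) of the 3 kept TGM2 probes on each of the 8 arrays, 1 panel per probe, grouped by line and treatment; points are arrays and horizontal lines are means of 2 arrays. In SKOV3 the brightest probe rises by 1.40, ILMN_1679267 falls by 0.98 and ILMN_1797236 shows no called change, whereas all 3 fall in OVCAR5.

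Counted over the 10 genes, 7 were called in SKOV3, against 49.5% of all tested genes: 6 were lower (CCN1, CCN2, ANKRD1, AJUBA, CRIM1 and AXL), against 23.4% of tested genes lower, and TGM2 was higher, against 26.1%. In OVCAR5, 6 were called, against 21.4% of tested genes, and all 6 were lower (CCN1, CCN2, ANKRD1, AJUBA, CRIM1 and TGM2), against 8.68% of tested genes; none was higher, against 12.8%. The median change of the 10 was -1.51 in SKOV3 and -0.98 in OVCAR5, beside 0.03 and 0.01 over the 11218 genes. Without background correction the medians of the 10 were -0.93 and -0.74. Alternatives that kept all arrays gave SKOV3 changes of -1.63 to -0.98 for AJUBA and of -1.38 to -0.89 for CRIM1. CCN1, CCN2, ANKRD1, AJUBA and CRIM1 were lower in both lines, 5 of 10 members, where 5.39% of tested genes were. The lovastatin and DMSO arrays did not overlap for 8 of the 10 genes in SKOV3 and for 9 in OVCAR5, against 73.2% and 67% of tested genes, so non-overlap alone is common on these arrays. In bulk RNA, fewer cells with a high level and less RNA per cell cannot be told apart in any of these values.

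The line difference was called for 6 of the 10 genes, against 26.1% of tested genes. The change was lower in SKOV3 for CCN1, CCN2, ANKRD1, AJUBA and AXL, against 13.8% of tested genes, and higher for TGM2, against 12.2%. AMOTL2, LATS2, CRIM1 and PTPN14 had no called difference, with values of 0.45 ± 0.24, 0.73 ± 0.30, -0.41 ± 0.18 and -0.30 ± 0.22.

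**Figure D3:**
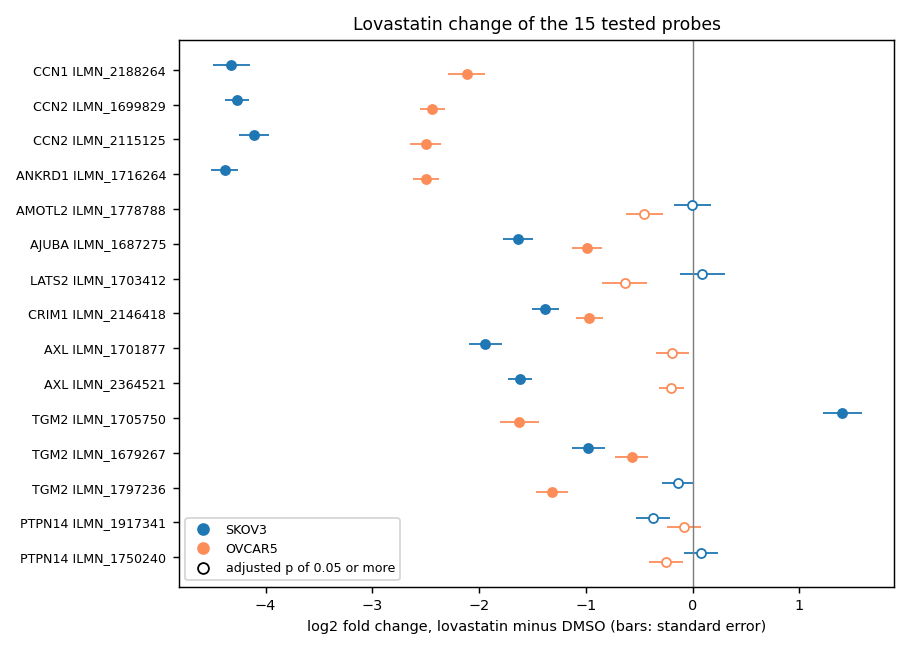
Log2 change with lovastatin (horizontal axis, lovastatin minus DMSO) of the 15 kept probes of the 10 genes, with SKOV3 in blue and OVCAR5 in orange, bars for the standard error and open points for an adjusted p of 0.05 or more. The CCN1 and CCN2 probes lie between -4.32 and -4.11 in SKOV3 and between -2.50 and -2.12 in OVCAR5, AXL is apart from 0 in SKOV3, and the brightest TGM2 probe lies on opposite sides of 0. Groups in which a probe was undetected (ANKRD1 and PTPN14 ILMN_1750240 in SKOV3, LATS2 in OVCAR5) enter at their measured values, so those points are not exact changes.

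Without lovastatin, the lines differed for 6 of the 10 genes, against 61.1% of tested genes: 1 was higher in SKOV3, against 31.9%, and 5 were lower, against 29.2%. CCN2 was higher in SKOV3 by 0.49 ± 0.11 (adjusted p = 0.00582), and by 0.64 ± 0.14 at its second probe (adjusted p = 0.00434). TGM2 was lower in SKOV3 by all 3 probes, with a difference of -3.69 ± 0.18 or 12.9-fold at the brightest (adjusted p = 7.93e-07). CRIM1 and PTPN14 were also lower in SKOV3, by 2.83-fold and 2.86-fold (adjusted p = 1.74e-05 and 6.04e-05).

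AXL differed by -0.54 ± 0.15 and AMOTL2 by -0.62 ± 0.17 (adjusted p = 0.0144 and 0.0138), and without SKOV3 DMSO replicate 1 both calls were lost, which left 4 of the 10. The AXL call was also lost without OVCAR5 DMSO replicate 2 (adjusted p = 0.0655), and that of its second probe without SKOV3 DMSO replicate 2 or either OVCAR5 DMSO array (adjusted p = 0.0583 to 0.0664). The AMOTL2 call was also lost without OVCAR5 DMSO replicate 1, with median scaling and in the authors' deposited log2 table. The levels of CCN1, ANKRD1, AJUBA and LATS2 had no called difference between the lines in DMSO; for CCN1 it was 0.01 ± 0.17 (95% interval -0.39 to 0.41, adjusted p = 0.962). CCN1 thus began from closely similar readings in both lines and ended lower in SKOV3. CCN2, which began slightly higher in SKOV3, also ended lower there.

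The profile over the 8 arrays was compared between genes by the root mean square difference of log2 values centred on each gene's mean, as a description. ANKRD1 was the gene closest to CCN1 of all tested, with a difference of 0.229, followed by CCN2 (0.383), THBS1 (0.400), MCM10 (0.459) and EXO1 (0.574). For CCN2 the closest were ANKRD1 (0.327), CCN1 (0.383), THBS1 (0.457), E2F2 (0.566) and EXO1 (0.615). The other members ranked lower by this difference from CCN1: AJUBA stood at 203, AXL at 222 and CRIM1 at 261. The measure also counts the size of a change. By Pearson correlation with CCN1 over the 8 arrays, AJUBA stood at 0.983, CCN2 at 0.977, AXL at 0.827 and CRIM1 at 0.785. PTPN14, AMOTL2, LATS2 and TGM2 correlated with CCN1 at 0.438, 0.416, 0.125 and 0.119. By the root mean square difference these genes ranked between 2224 and 8278. All genes share the same 8 arrays and the same 4 groups, so a close profile means similar line and treatment differences. The measure takes the undetected SKOV3 lovastatin readings of ANKRD1 as they stand, and it was not repeated under another background correction.

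The 22 genes of the Hippo pathway and YAP cofactors, of which 18 were tested, had calls in both directions. In SKOV3 4 were higher and 4 lower, 8 of 18 called beside 49.5% of all tested genes, and in OVCAR5 3 were higher and 4 lower, 7 of 18 called beside 21.4%, with a median change of 0.13 in each line. YAP1 read 10.26 and 9.82 in SKOV3 with DMSO and 10.23 and 9.98 with lovastatin, and 9.85 and 9.81 in OVCAR5 with DMSO and 9.97 and 10.05 with lovastatin. Its change was 0.06 ± 0.17 in SKOV3 and 0.18 ± 0.17 in OVCAR5, neither called (adjusted p = 0.785 and 0.51), so the transcript of YAP showed no called change while CCN1, CCN2 and ANKRD1 fell. The arrays measure transcripts, not the amount or location of the YAP protein.

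WWTR1, which encodes TAZ, read 7.77 and 8.08 in SKOV3 with DMSO and 7.16 and 6.46 with lovastatin, and 6.89 and 6.97 in OVCAR5 with DMSO and 7.93 and 8.15 with lovastatin. It fell by 1.11 ± 0.23 in SKOV3 (adjusted p = 0.00386) and rose by 1.11 ± 0.23 in OVCAR5 (adjusted p = 0.0108). The OVCAR5 rise was not called without OVCAR5 DMSO replicate 1 (adjusted p = 0.0533) or without OVCAR5 lovastatin replicate 2 (adjusted p = 0.0701). The difference between the lines was -2.22 ± 0.32 (adjusted p = 0.00189). In OVCAR5, CCN1, CCN2 and ANKRD1 were thus lower in the same arrays in which WWTR1 was higher.

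Among the TEAD factors, TEAD2, TEAD3 and TEAD4 had no called change by their brightest probes in either line, and TEAD1 had no kept probe. A second TEAD4 probe fell by 0.74 ± 0.15 in OVCAR5 (adjusted p = 0.0111). The largest called changes of the list in SKOV3 were rises of MAP4K4, a kinase upstream of LATS (1.58 ± 0.15, adjusted p = 6.18e-05), and of VGLL4, which competes with YAP for TEAD (1.22 ± 0.14, adjusted p = 0.000168). NF2, the membrane scaffold merlin, was undetected in SKOV3 with lovastatin and at least 1.62-fold lower (adjusted p = 0.0001). Alternatives that kept all arrays gave NF2 changes in SKOV3 of -1.28 to -0.39. In OVCAR5 the largest called changes were falls of FRMD6 (1.17 ± 0.13, adjusted p = 0.000686) and WWC1 (1.05 ± 0.13, adjusted p = 0.00121), both membrane-linked activators of the kinases, beside the rise of WWTR1. Each of these changes but that of WWTR1 was called in the same direction in the other line. MAP4K4 and VGLL4 rose by 0.57 ± 0.15 and 0.50 ± 0.14 in OVCAR5 (adjusted p = 0.0274 and 0.0333). NF2 was undetected there with lovastatin, at least 1.07-fold lower (adjusted p = 0.00409). FRMD6 and WWC1 fell by 0.47 ± 0.13 and 0.67 ± 0.13 in SKOV3 (adjusted p = 0.0148 and 0.00294). The second kept probes of MAP4K4 in OVCAR5 and of FRMD6 in SKOV3 were not called.

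**Figure D4:**
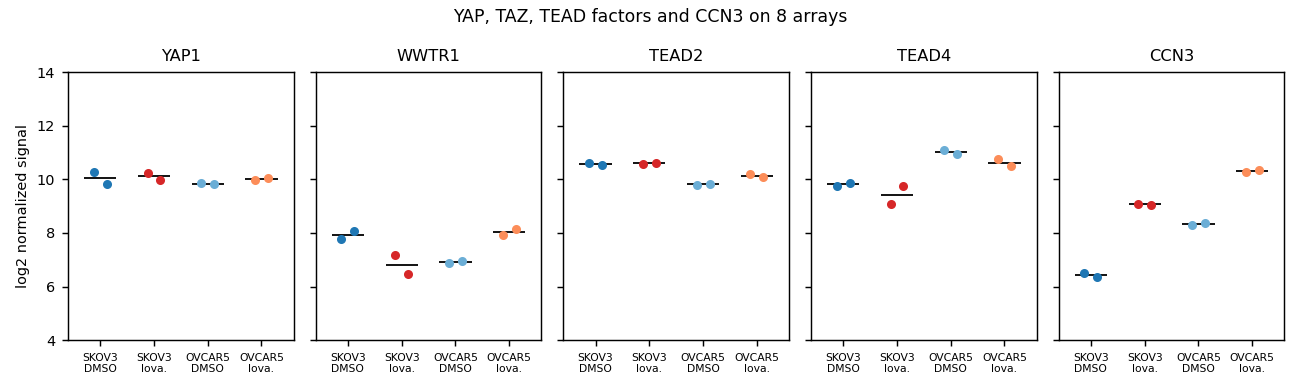
Normalised log2 intensity (vertical axes) of YAP1, WWTR1 (TAZ), TEAD2, TEAD4 and CCN3 on each of the 8 arrays, grouped by line and treatment; points are arrays and horizontal lines are means of 2 arrays. YAP1 stays between 9.81 and 10.26 on all arrays, while WWTR1 falls in SKOV3 and rises in OVCAR5, and CCN3, described further on, rises in both.

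Of 14 further conserved YAP and TAZ targets, 13 were tested. In SKOV3 2 were higher and 5 lower, beside 26.1% and 23.4% of all tested genes, with a median change of -0.00. In OVCAR5 none was higher and 4 were lower, beside 12.8% and 8.68%, with a median of -0.30. IGFBP3, which binds insulin-like growth factors, fell by 4.0 ± 0.19 in SKOV3 (adjusted p = 2.67e-06) and was undetected in OVCAR5. TGFB2, a TGF-beta ligand, fell by 1.37 ± 0.14 in OVCAR5 (adjusted p = 0.000519), and was undetected on all 4 SKOV3 arrays, so no change can be given there. It was detected on only 1 OVCAR5 lovastatin array, and alternatives that kept all arrays gave OVCAR5 changes of -1.37 to -0.59. NUAK2, a kinase of the AMPK family, was lower in both, by at least 1.64-fold in SKOV3 (adjusted p = 0.000258) and by 0.91 ± 0.16 in OVCAR5 (adjusted p = 0.00537). Alternatives that kept all arrays gave NUAK2 changes in SKOV3 of -1.42 to -0.44.

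Against the direction of CCN1, NT5E, the ectoenzyme CD73, rose by 1.30 ± 0.15 in SKOV3 (adjusted p = 0.000189). FJX1, a secreted or Golgi protein of the Fat and Dachsous pathway, fell by 0.58 ± 0.15 in OVCAR5 (adjusted p = 0.028), a call lost with median scaling (adjusted p = 0.073) and without each of the 4 OVCAR5 arrays. With median scaling 2 of the 13 were lower in OVCAR5, beside 459 of 11218 genes. In SKOV3 the 13 genes thus held members called in each direction. Their median in SKOV3 is the reading of TGFB2, which was undetected there, so that median is not a measured change.

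Within the CCN family, CCN3 (NOV) moved against CCN1 and CCN2. It read 6.50 and 6.36 in SKOV3 with DMSO and 9.08 and 9.04 with lovastatin, and 8.28 and 8.37 in OVCAR5 with DMSO and 10.26 and 10.35 with lovastatin. CCN3, a matricellular protein that often acts opposite to CCN2, rose by 2.63 ± 0.12 in SKOV3 and by 1.98 ± 0.12 in OVCAR5 (adjusted p = 2.47e-06 and 4.89e-05), with all lovastatin arrays above the DMSO arrays of their line. CCN4, CCN5 and CCN6 had no kept probe.

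**Figure D5:**
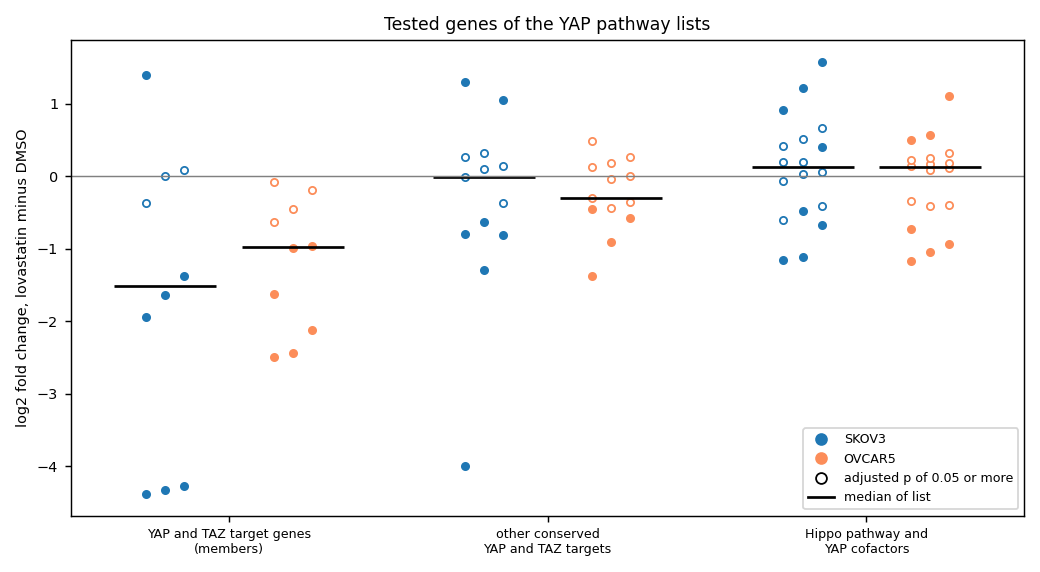
Log2 change with lovastatin (vertical axis, lovastatin minus DMSO) of the tested genes among the 10 targets, the other conserved targets and the Hippo and cofactor genes, with SKOV3 in blue and OVCAR5 in orange. Points are genes by their brightest kept probe, open where the adjusted p was 0.05 or more, and black lines are list medians; groups in which a gene was undetected enter at their measured values. The 10 targets have medians of -1.51 in SKOV3 and -0.98 in OVCAR5, whereas the Hippo and cofactor genes have a median of 0.13 in each.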

How the data were processed

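RNA of SKOV3 and OVCAR5 was hybridised to 8 beadchips, 2 per line and treatment; the labels give the groups. The authors deposited mean bead intensity per probe, not normalised per the file headers and values, with a detection p-value per probe and array. They also deposited a log2 table, made with limma per the submitters' processing notes; 99.9968% of its SKOV3 and 99.9873% of its OVCAR5 values lay within 0.01 of neqc run within each line, so it was treated as neqc output made line by line. Its limma version, other software and scan or slide records were not given in the sources used here, so no batch could be examined.

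The main values came from the intensities of all 8 arrays with neqc in limma 3.58.1 and R 4.3.3 (normal-exponential background from the detection p-values, then quantile normalisation and log2, offset 16). Probe symbols came from the platform annotation: 30113 probes had 1 symbol, 8 several and 17202 were unnamed here; 30074 have a current record. The filter kept 14851 single-symbol probes, each with detection p under 0.01 on 2 arrays or more. Limma's lmFit and eBayes estimated 4 group means, with 1 spread shared by all 8 arrays. Tested were the lovastatin change of each line, the difference between those changes, and SKOV3 against OVCAR5 under DMSO. For a fall into a group in which every array left the probe undetected, a bound is given in place of a fold, where each dim array counts at its lowest detected signal or at the probe's own, whichever is higher. Such a bound holds for the main values only. Adjusted p-values, differences between the lines, list medians and likeness use the measured values of such groups. Having 2 arrays a group is what bounds precision here.

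All 10 genes are named, with up to 3 called genes of largest change per line from each related list, and the 5 genes most like CCN1 and CCN2. YAP1, TEAD1 to TEAD4 and CCN4 to CCN6 are named outside that rule, after their values were seen. A further list is not reported here. The genes and lists were chosen with earlier results of these data known. Alternatives covered the background correction, scaling, filter, probe choice, spread estimate, a replicate block, the authors' deposited log2 table and leaving out each array. The steps were tested on simulated data. Plots used matplotlib 3.10.9 (Python 3.11.15).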

Additional observations from a re-analysis of the deposited data

Results flagged for a closer look

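These results were picked out because the lovastatin change differed between the lines by the test of that difference (SKOV3 minus OVCAR5, log2, limma with Benjamini-Hochberg adjustment over 14851 probes). The difference was -2.21 for CCN1, -1.83 and -1.61 for the 2 probes of CCN2, -1.89 for ANKRD1, -0.65 for AJUBA and -1.75 and -1.42 for the 2 probes of AXL. For these genes the fitted change was lower in SKOV3; that of ANKRD1 takes its undetected SKOV3 lovastatin arrays at their measured values. For TGM2 it was 3.03 by the brightest probe and 1.18 by ILMN_1797236 (adjusted p = 0.00535), while the third probe, ILMN_1679267, gave -0.40 and was not called (adjusted p = 0.218).

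Among the related genes the difference was 1.01 for MAP4K4 (adjusted p = 0.00942), 0.71 for VGLL4 (adjusted p = 0.0289), 0.70 for FRMD6 (adjusted p = 0.024) and -2.22 for WWTR1. For NT5E it was 1.03 (adjusted p = 0.00895), a call lost in 1 of 18 alternatives, as was that of MAP4K4. The calls of VGLL4 and FRMD6 were each lost in 7 of 18, with adjusted p up to 0.154 and 0.142. In the main fit CCN3 rose more in SKOV3, by 0.66 (adjusted p = 0.0248), a call lost in 9 of 18 alternatives. Without background correction that difference was 0.08 (adjusted p = 0.666), and with median scaling 0.36 (adjusted p = 0.357).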

How the results depend on the processing

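No result changed sign while called, and the counts of the 10 genes called stayed within 1.5 times under every alternative. Leaving out 1 array gave 7 to 8 in SKOV3, 6 to 7 in OVCAR5, 5 to 6 for the line difference and 4 to 6 for the lines in DMSO; other settings gave 6 to 8, 6 to 7, 5 to 6 and 5 to 6. The deviations of arrays with the same replicate number correlated at r = 0.21 in SKOV3 and -0.01 in OVCAR5, over 14851 probes; with 2 numbers per line and no label that ties them, the numbers were not taken as pairs. A replicate block gave 8, 7, 6 and 6 genes called, adding PTPN14 in SKOV3 (adjusted p = 0.0417) and LATS2 in OVCAR5 (adjusted p = 0.0439). AMOTL2 was called in OVCAR5 (adjusted p = 0.0395) without either SKOV3 lovastatin array, and its difference between the lines in DMSO was not with median scaling (-0.25, adjusted p = 0.251) or the authors' deposited table (-0.27, adjusted p = 0.216). Over all tested genes, 2405 were called in OVCAR5 and 1164 to 1305 without an OVCAR5 array; for the line difference, 2923 were called and 1944 without SKOV3 DMSO replicate 1 or 1954 without OVCAR5 lovastatin replicate 1. With median scaling the share of calls that were higher went from 59.5% to 75.9% in OVCAR5, from 47% to 31.6% for the line difference and from 52.2% to 64.6% for the lines in DMSO (63.7% in the authors' deposited table); the all-gene median became 0.10, -0.16 and 0.21. Counts of the related lists under other scalings stand beside them only where they moved by over 1.5 times. With 2 arrays per group, changes of dim probes (AMOTL2, LATS2) are limited by signal over background.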
